A study of Mus musculus with 6 samples.

Results

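The genes described here are 10 regulators of cell division out of 32285 genes counted in mouse testis: the cyclins Ccna1, Ccna2, Ccnb1, Ccnb2, Ccnb3, Ccnd2 and Ccne2, the kinase Aurka, the phosphatase Cdc25c and the securin Pttg1. They were chosen by name, as genes of the mitotic and meiotic divisions, and their levels were followed across germ cell stages that were set with markers other than these genes. Testes came from 8-week-old wild-type mice (C57BL/6 in the labels, C57BL/6N in the study's methods) fed for 2 weeks with high-fat food (HFD) or low-fat food (LFD), with 3 mice and so 3 libraries per diet, and no other treatment or allele. Dissociated testis cells were run on a droplet platform that tags each captured RNA molecule with a unique molecular identifier (UMI) and each cell with a barcode, and the 6 libraries held 48939 barcodes. For all 6 libraries the name of the deposited file states the other diet than the GEO title does. Groups follow the titles and are written as labelled HFD and labelled LFD, and every diet difference below changes its sign, with the same p, if the file names are right.

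Cyclins are the regulatory partners of cyclin-dependent kinases and give each kinase its time of action. D-type and E-type cyclins act at entry into and start of DNA replication, A-type cyclins during replication and before division, and B-type cyclins with the kinase Cdk1 at division itself. Aurka builds the spindle poles, Cdc25c removes inhibitory phosphates from Cdk1, and Pttg1 (securin) holds the protease separase inactive until chromosomes part. In the testis, spermatogonia divide by mitosis, then spermatocytes replicate once, pass through a long meiotic prophase with its pachytene stage, and then pass through a pair of meiotic divisions without replication between them to give round spermatids, which elongate into sperm. Ccna1 is known as the A-type cyclin of male meiosis and Ccna2 as that of mitotic cells.

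Promoter sequences from RefSeq (build GRCm38.p6) were at hand for 6 of the 10 genes (Ccna1, Ccnb1, Ccnb2, Ccnb3, Aurka and Pttg1). The 4 that reach outside the annotated gene are shown, to set Ccnb2, Aurka and Ccnb1 beside Ccnb3. Those of Ccna1 and Pttg1, which peak around the divisions as well, lie wholly inside the annotated gene and were searched but are not shown. All 4 lie on the minus strand and are written 5′ to 3′, from 150 bases before the RefSeq start of the gene: Ccnb2 at chr9:70421525-70421704, Aurka at chr2:172370541-172370720 and Ccnb3 at chrX:7041590-7041769 to 30 bases from the start base on, and Ccnb1 at chr13:100786541-100786636 only to 55 bases before it. Capitals mark matches, on either strand, of 5 motifs known from cell cycle and testis promoters. These were the CCAAT box that NF-Y binds, the cell cycle homology region in its form TTTGAA and its rarer form TTCGAA, the Myb motif TAACGG, and the cyclic AMP response element TGACGTCA.
Ccnb2: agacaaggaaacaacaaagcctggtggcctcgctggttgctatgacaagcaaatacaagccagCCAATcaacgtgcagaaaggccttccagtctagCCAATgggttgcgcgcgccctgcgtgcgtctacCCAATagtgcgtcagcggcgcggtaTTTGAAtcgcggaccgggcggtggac
Aurka: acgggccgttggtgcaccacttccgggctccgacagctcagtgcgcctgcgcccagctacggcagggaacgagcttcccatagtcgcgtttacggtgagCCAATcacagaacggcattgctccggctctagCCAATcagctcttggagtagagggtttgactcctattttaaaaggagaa
Ccnb1: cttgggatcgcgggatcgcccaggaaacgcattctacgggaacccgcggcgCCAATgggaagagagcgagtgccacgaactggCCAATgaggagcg
Ccnb3: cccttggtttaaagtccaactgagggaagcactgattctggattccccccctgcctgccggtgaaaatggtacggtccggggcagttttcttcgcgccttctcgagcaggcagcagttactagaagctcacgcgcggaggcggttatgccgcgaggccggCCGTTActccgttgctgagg
Ccnb2 held 3 CCAAT matches, which began 87, 54 and 21 bases before the start, and 1 TTTGAA match that began 4 bases after it. Aurka held 2, at 51 and 19 bases before the start, and Ccnb1 held 2, at 99 and 67 bases before it. All of these ran on the strand of the gene, with first bases 33 apart in Ccnb2 and 32 apart in Aurka and Ccnb1. Among 32851 RefSeq windows of the same 180 bases, 27.0% held CCAAT, 6.97% held at least 2 matches, and 0.728% held a pair on 1 strand with first bases 31 to 34 apart, a spacing chosen after these sequences were seen. TTTGAA was in 10.4% of windows, TTCGAA in 0.798%, TAACGG in 1.67% and TGACGTCA in 1.56%. Ccnb3 held no CCAAT and 1 TAACGG match on the opposite strand, Ccna1 held 1 CCAAT on the opposite strand, and Pttg1 held none of the 5. A match is a run of letters and is not evidence of binding.

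Stages were set on the 12392 barcodes with at least 5000 UMIs, by the highest score over marker lists that hold none of the 10 genes and no other cell cycle gene of the lists used here. In all, 10323 barcodes entered 8 germ cell stages, 253 entered 3 somatic classes and 1816 entered none. Spermatogonia numbered 367, early meiotic prophase 764, pachytene spermatocytes 1482, late spermatocytes 685, early round spermatids 2145, later round spermatids 1927, spermatids starting elongation 654 and elongating spermatids 2299. The thinnest stage was spermatogonia, with 27 to 118 barcodes per library. The lists held where stages are far apart and less well between neighbours: 10 of 13 spermatogonial, 13 of 15 early prophase and 10 of 10 elongating markers were highest in their own stage, against 6 of 10 for pachytene, 4 of 7 for late spermatocytes and 4 of 8 for early round spermatids. Levels are in CPM, the usual scaling of counts to a common total, of the UMIs summed over the barcodes of a stage in 1 library, so that n = 6 libraries, and they count RNA 3′ ends without regard to gene length. Pairs of libraries shared 12 to 28 barcodes, at most 0.320% of the smaller one, and libraries held 39196921 to 95845514 UMIs. The somatic classes also held UMIs of these genes, and the part of free RNA, mixed barcodes or expression in them was not tested. In Sertoli cells, macrophages with other leukocytes, and the class of Leydig, peritubular and stromal cells, Ccna1 stood at 38.8, 132 and 55.5 CPM, Aurka at 48.5, 90.6 and 69.8, Ccnb2 at 52.8, 178 and 77.7, Ccnb1 at 22.7, 105 and 40.4, and Pttg1 at 137, 62.8 and 119. For the genes just listed and Cdc25c, a germ cell level inside or under the range over the 3 classes is named as such below, since it does not stand above what these classes held. Ccna2, Ccnb3, Ccne2 and Cdc25c were at 17.4 CPM or less in all 3 classes, where the macrophage class held only 286848 UMIs.

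**Figure D1:**
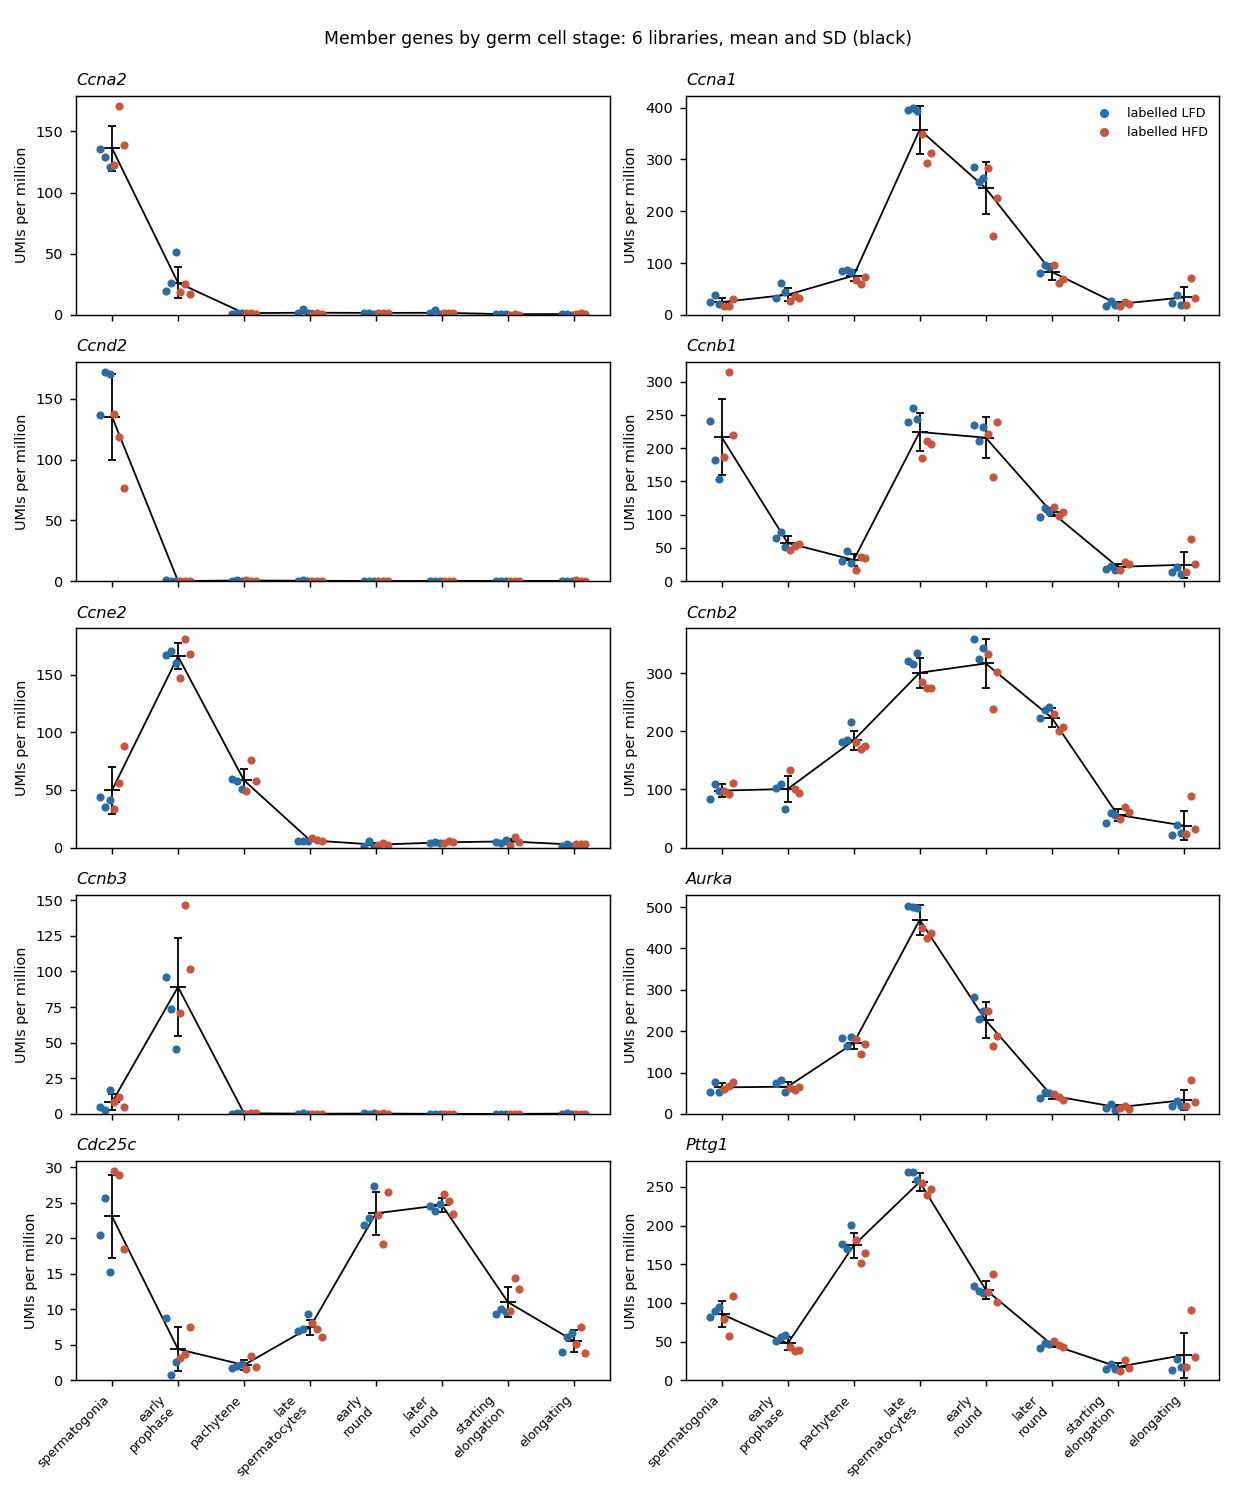
CPM (UMIs) of the 10 genes (y axis, linear, from 0) in 8 germ cell stages (x axis), with 1 point per library, coloured by labelled diet, and the mean and SD of 6 libraries in black. Ccna2 and Ccnd2 stand high in spermatogonia, Ccne2 and Ccnb3 in early meiotic prophase, and Ccna1, Aurka and Pttg1 in late spermatocytes, while Ccnb1 and Cdc25c have 2 high places each.

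Ccnd2 and Ccna2 were the spermatogonial cyclins. Ccnd2, a D-type cyclin that couples growth signals to the kinases Cdk4 and Cdk6 (chr6:127125162-127152193, GRCm38), had a lowest, median and highest level of 76.5, 137 and 172 CPM over the 6 libraries in spermatogonia. From early meiotic prophase on it was near 0: 1 UMI among 6697560 in early prophase against 825 among 5864615 in spermatogonia, a ratio of 942 with a 95% counting interval of 169 to 37258. The mean of every later stage was at or under 0.593 CPM. The ranges of spermatogonia and of every other germ cell stage did not overlap. Outside the germ line, Ccnd2 stood at 190 CPM in the Leydig, peritubular and stromal class (counting interval 167 to 216), above its spermatogonial mean of 135 ± 35.4 (SD, n = 6), and at 3.24 CPM in Sertoli cells. Ccna2, the A-type cyclin of replicating cells (chr3:36564865-36572150), ran from 121 to 171 CPM in spermatogonia, with a median of 132. In early prophase it ran from 17.1 to 51.0 with a median of 22.1, below spermatogonia and above pachytene spermatocytes in every library. Pachytene spermatocytes held 0.814 to 1.87 CPM, and the ranges of the stages after it overlapped one another, so that no order can be given there.

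Ccne2 and Ccnb3 peaked in early meiotic prophase. Ccne2, an E-type cyclin that works with Cdk2 (chr4:11191351-11204779), ran from 148 to 181 CPM there, with a median of 168. Spermatogonia (49.8 ± 20.4) and pachytene spermatocytes (58.4 ± 9.43) lay below that range and overlapped each other. In late spermatocytes Ccne2 was at 6.36 ± 1.04 CPM. Ccnb3, a B-type cyclin on the X chromosome (chrX:6979652-7041619) known for its part in meiosis, ran from 45.9 to 146 CPM in early prophase with a median of 84.9. Spermatogonia held 2.57 to 17.0 CPM of it. Pachytene spermatocytes held 0.506 ± 0.283, and late spermatocytes held 5 UMIs in all, with 3 of 6 libraries at 0. The ratio of early prophase to late spermatocytes was 646, with a counting interval of 276 to 1998. Early prophase barcodes were the shallowest of the germ line, with a median of 7729 UMIs against 33351 in late spermatocytes, and the CPM scales counts to a common total. In barcodes of at least 10000 UMIs the fall of Ccne2 from early prophase to pachytene spermatocytes shrank to a log2 of -0.37 and was not called. That of Ccnb3 kept its call. At this limit as few as 11 barcodes remained in a stage and library.

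Ccna1, Aurka and Pttg1 were highest in late spermatocytes, the stage next to the meiotic divisions. Ccna1 (chr3:55045469-55055501) ran from 294 to 399 CPM there with a median of 372. Early round spermatids followed with 151 to 285, without overlap, and later round spermatids with 61.1 to 96.7. In spermatogonia (16.7 to 38.6) and early prophase (26.3 to 61.2) Ccna1 stood at or under the level of the somatic classes. Aurka (chr2:172356190-172370535) ran from 426 to 503 CPM in late spermatocytes, with a median of 474, above every library of every other stage. Pachytene spermatocytes held 145 to 187 and early round spermatids 163 to 282, which overlap. Spermatogonia, at 64.2 ± 11.2, lay within the range of the somatic classes. Pttg1 (chr11:43420250-43426251) ran from 240 to 270 CPM in late spermatocytes with a median of 257, then 152 to 201 in pachytene spermatocytes and 102 to 137 in early round spermatids, with no overlap between the 3. The early round level lay within the range of the somatic classes. Its levels in spermatogonia (85.5 ± 17.1) and early prophase (47.7 ± 8.84) were under that of Sertoli cells. Ccna1 in pachytene spermatocytes (75.7 ± 10.8) and in later round spermatids also lay within the somatic range, while Aurka and Pttg1 in later round spermatids lay under it. All 3 were lower in early round spermatids than in late spermatocytes by the test given below, and later round spermatids held 82.9 ± 14.9 CPM of Ccna1, 44.3 ± 7.61 of Aurka and 46.4 ± 3.25 of Pttg1.

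Ccnb1 and Ccnb2, the B-type cyclins of division, differed in where they were low. Ccnb1 (chr13:100778650-100786570) ran from 153 to 314 CPM in spermatogonia with a median of 203, from 16.7 to 45.7 in pachytene spermatocytes, and ran from 185 to 260 in late spermatocytes with a median of 225. Spermatogonia, late spermatocytes and early round spermatids (156 to 239) overlapped in CPM, so that Ccnb1 had a high place before and another after its pachytene low. How the levels of spermatogonia and late spermatocytes compare depends on the scaling, as given below. Ccnb2 (chr9:70407692-70421547) showed no such dip. It stood at 98.1 ± 10.5 CPM in spermatogonia and 101 ± 21.6 in early prophase, at 185 ± 16.3 in pachytene spermatocytes and 301 ± 25.8 in late spermatocytes, and was still at 224 ± 16.3 in later round spermatids. Late spermatocytes and early round spermatids (317 ± 42.9) overlapped for Ccnb2. Its levels in spermatogonia and early prophase, and those of Ccnb1 in early prophase (57.4 ± 10.3) and pachytene spermatocytes, lay within the range of the somatic classes. Pseudogenes are annotated under the names Ccnb1-ps and Ccnb2-ps, and how reads shared with them were counted was not tested.

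Cdc25c was low throughout and had its low point in meiotic prophase. It held 23.1 ± 5.82 CPM in spermatogonia, 4.40 ± 3.05 in early prophase, 2.17 ± 0.653 in pachytene spermatocytes and 7.47 ± 1.09 in late spermatocytes. The last 3 of these lay within the range of the somatic classes (1.59 to 17.4 CPM, the highest from 5 UMIs). Early and later round spermatids held 23.5 ± 3.00 and 24.7 ± 1.02, and their ranges overlapped that of spermatogonia. CPM scales by total counts alone, and round spermatids were not tested against spermatogonia. The log2 change of late spermatocytes from spermatogonia ran from -1.72 to -0.99 over the 4 scalings described below. Every library showed less of it in late spermatocytes (6.13 to 9.30) than in early round spermatids (19.2 to 27.3).

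The makeup of the A-type and B-type cyclin UMIs changed with stage. UMIs of 2 genes are not a comparison of their levels, since capture can differ between transcripts, but their share can be compared between stages. Ccna1 made up 8.94% to 23.1% of the Ccna1 and Ccna2 UMIs of spermatogonia, 45.9% to 70.1% in early prophase, and 98.9% to 99.9% in late spermatocytes. The difference between late spermatocytes and spermatogonia was 84.2 ± 5.11 percentage points (SD, n = 6 libraries), in the same direction in 6 of 6 libraries (exact sign-flip test, two-sided, p = 0.03125, the smallest that 6 libraries allow). The Ccna1 levels of spermatogonia and of early prophase (38.8 CPM) were no higher than those of the somatic classes, while Ccna2 fell from 136 to 26.2 CPM between them on average. Ccnb3 made up 28.1% to 48.9% of the cyclin B UMIs in early prophase and 0.0344% on average in late spermatocytes, a difference of 35.1 ± 8.48 points in 6 of 6 libraries (exact sign-flip test, two-sided, p = 0.03125). Ccnb1 went from 66.2% ± 6.80 of the cyclin B UMIs in spermatogonia to 14.7% ± 4.23 in pachytene spermatocytes and 42.6% ± 1.86 in late spermatocytes. Ccnb2 mirrored it with 31.1% ± 6.15, 85.1% ± 4.30 and 57.4% ± 1.90.

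**Figure D2:**
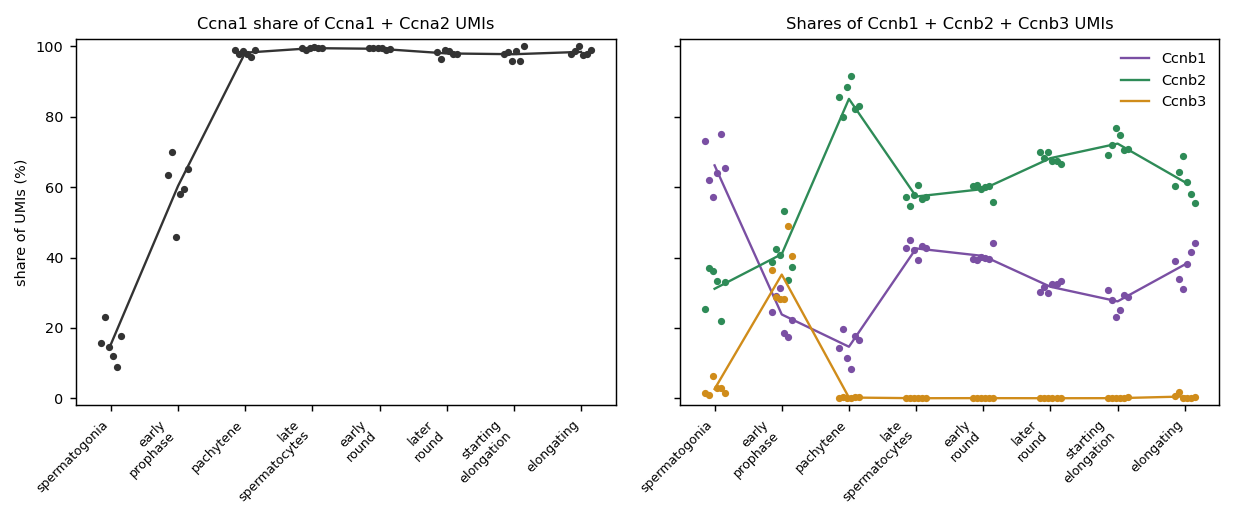
Share of UMIs in percent (y axis) by germ cell stage (x axis) for Ccna1 among the 2 A-type cyclins (left) and for Ccnb1, Ccnb2 and Ccnb3 among the 3 B-type cyclins (right), with 1 point per library and lines through the means. Ccna1 passes from 15.3% in spermatogonia to 60.3% in early prophase and 98.2% in pachytene spermatocytes, with its own level no higher than that of the somatic classes in the first 2 of these, and Ccnb3 takes a large share in early prophase alone among the stages shown.

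Stages were compared by edgeR's quasi-likelihood test on UMIs summed per stage and library, with the library as a block and 16577 genes tested. These are comparisons of very different cells, in which most genes change, so that the count of members is read against all genes. From spermatogonia to early prophase, 3 of the 10 rose (Ccna1, Ccnb3 and Ccne2), against 29.1% of all genes, and 5 fell (Ccna2, Ccnb1, Ccnd2, Cdc25c and Pttg1), against 22.9%. From early prophase to pachytene spermatocytes, 4 rose (Ccna1, Ccnb2, Aurka and Pttg1), against 35.6%, and 3 fell (Ccna2, Ccnb3 and Ccne2), against 32.3%. Toward late spermatocytes 6 rose (Ccna1, Ccnb1, Ccnb2, Aurka, Cdc25c and Pttg1), against 21.8%, and only Ccne2 fell, against 33.5%. Into early round spermatids 1 rose (Cdc25c), against 34.5%, and 4 fell (Ccna1, Ccne2, Aurka and Pttg1), against 29.6%. Between spermatogonia and late spermatocytes all 10 were called, 5 higher (Ccna1, Ccnb1, Ccnb2, Aurka and Pttg1), against 35.6%, and 5 lower (Ccna2, Ccnb3, Ccnd2, Ccne2 and Cdc25c), against 39.5%.

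The sizes of the called steps differed between genes. From early prophase to pachytene spermatocytes Ccnb3 fell by 7.05 on the log2 scale (SE 0.31, edgeR adjusted p = 4.7e-25), Ccna2 fell by 3.61 (SE 0.27) and Ccne2 fell by 0.99 (SE 0.17). In barcodes of at least 10000 UMIs Ccne2 was lower by 0.37 and not called. Pttg1 rose by 2.42 (SE 0.18) in that step, Aurka by 1.88 (SE 0.17), Ccna1 by 1.48 (SE 0.18, to a level still within the somatic range) and Ccnb2 by 1.36 (SE 0.15). From pachytene to late spermatocytes Ccnb1 rose by a log2 of 2.93 (SE 0.18, edgeR adjusted p = 9.0e-19) and Ccna1 by 2.33 (SE 0.16, edgeR adjusted p = 7.9e-17). Cdc25c rose by 1.83 (SE 0.20, to a level still within the somatic range) and Aurka by 1.54 (SE 0.16) in the same step, Ccnb2 by 0.80 (SE 0.14) and Pttg1 by 0.65 (SE 0.16). Ccne2 fell by 3.09 (SE 0.20). Into early round spermatids Cdc25c rose by a further 1.79 (SE 0.16, edgeR adjusted p = 6.5e-14), while Pttg1 fell by 1.02 (SE 0.16) and Aurka by 0.93 (SE 0.16). From spermatogonia to early prophase Ccnb3 rose by a log2 of 3.60 (SE 0.29, edgeR adjusted p = 9.4e-15) and Ccne2 by 1.97 (SE 0.20), while Ccna2 fell by 2.38 (SE 0.21), Cdc25c by 2.23 (SE 0.28) and Ccnb1 by 1.75 (SE 0.19). Ccna1 rose by 0.80 (SE 0.22) there, but in barcodes of at least 10000 UMIs it was lower by 0.18 and not called, and its levels were no higher than those of the somatic classes on both sides. The fall of Ccnd2 in this step is given above as a ratio of UMIs, since a fitted change to 1 UMI depends on the prior count. Into early round spermatids Ccna1 fell by 0.43 (SE 0.16, edgeR adjusted p = 0.015), a call that was lost without labelled LFD replicate 1 (0.056), labelled LFD replicate 3 (0.055) or labelled HFD replicate 3 (0.097).

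These changes depend on how libraries of unlike RNA content are scaled. Between spermatogonia and late spermatocytes the median of all genes was at a log2 of -0.14 with TMM factors, -0.82 with median-of-ratios factors and -0.87 with library size alone. Ccnb1, at 224 CPM against 216, was higher by 0.82 (SE 0.17) with TMM and by 0.07 with library size alone, and was called only with TMM. Set against the median of all genes it was higher by 0.91 to 1.02 under all 4 scalings, DESeq2's included. The other 9 genes were called in the same direction under all 4, with Ccna1 higher by 3.88 to 4.61, Aurka by 2.89 to 3.63, Ccnb2 by 1.62 to 2.37 and Pttg1 by 1.59 to 2.34. Of all genes called in this comparison 47.4% were higher with TMM and 34.4% with library size alone. From spermatogonia to early prophase this split was 56.0% with TMM and 44.7% with median-of-ratios factors, from early prophase to pachytene spermatocytes 52.4% and 33.7%, and from pachytene to late spermatocytes 39.5% and 49.2%. Ccnb1 and Cdc25c were called lower from early prophase to pachytene spermatocytes under 3 of 4 scalings but not with TMM (log2 -0.36 and -0.59).

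A finer order came from placing the 6239 barcodes of the 4 stages from pachytene spermatocytes to later round spermatids on the difference between their round spermatid and pachytene marker scores, in 10 bins of equal size. Late spermatocytes were mostly in bins 2 to 4, but these bins mix stages. Bin 3 held 342 pachytene and 279 late spermatocytes, and bin 4 held 344 early round spermatids and 208 late spermatocytes. Ccne2 was highest in bin 1 in all 6 libraries, at 53.5 CPM on average, and was at 7.29 by bin 4. Pttg1 peaked in bin 3 in all 6 libraries, at 238 CPM, and was down to 129 in bin 5. Aurka peaked in bin 3 on average, at 403 CPM (bin 3 or 4 in each library). Ccna1 and Ccnb1 peaked in bin 4 on average, at 336 and 278 CPM (bin 3 or 4 in each library), and Ccnb2 in bin 4 at 342, with peaks from bin 3 to bin 6. Cdc25c came last on average, with its mean highest in bin 8 at 28.2 CPM and peaks from bin 5 to bin 8. In labelled LFD replicate 2 it peaked in bin 5, before Ccnb2 in bin 6. In bin 8 Aurka stood at 72.2 CPM, which like Pttg1 in bin 5 lay within the somatic range, and Ccnb2 stood at 265. The shallowest bin, bin 1, held as few as 18 barcodes in 1 library, and the peaks of bins 3 to 8 do not rest on it. Bins are a description and carry no test.

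**Figure D3:**
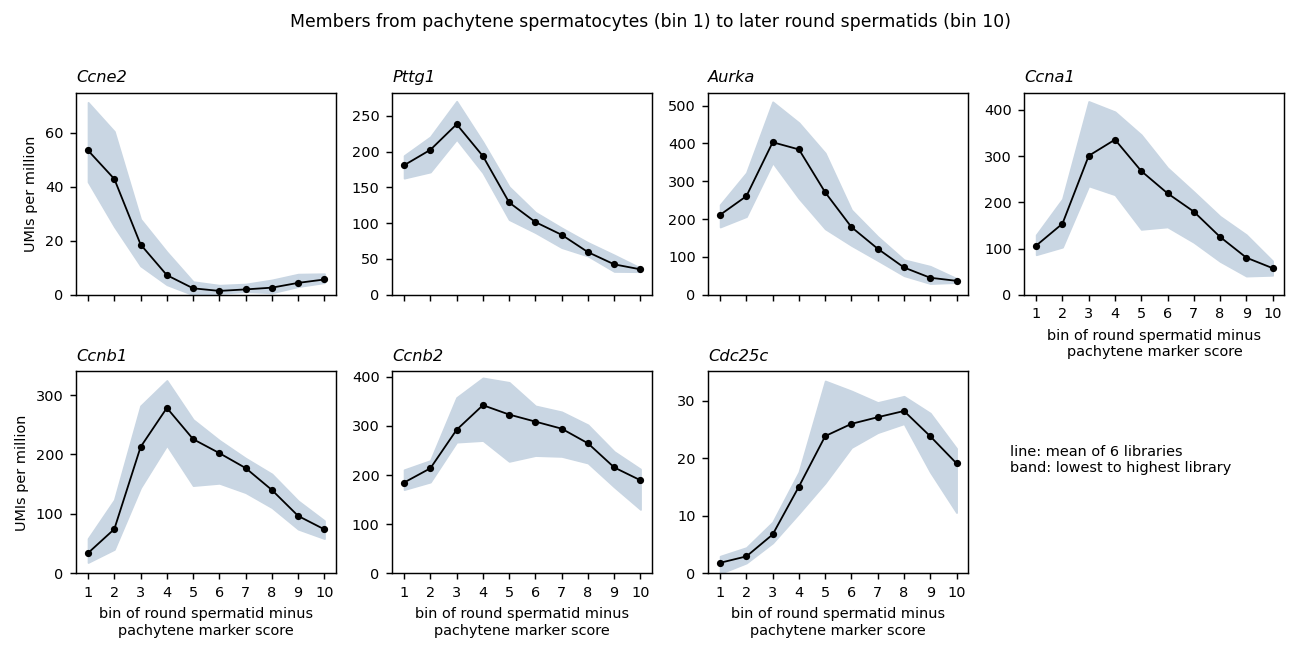
Level in CPM (y axis, linear, from 0) of 7 of the genes in 10 bins of the difference between round spermatid and pachytene marker scores (x axis), with the mean of 6 libraries as a line and the range over libraries as a band. In the mean, Pttg1 and Aurka turn down after bin 3, Ccna1, Ccnb1 and Ccnb2 after bin 4, and Cdc25c is highest at bins 6 to 8.

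The share of barcodes with a UMI was also compared at equal depth. With every barcode thinned to 5000 UMIs, Aurka was found in 86.4% of late spermatocytes (95% interval 83.6% to 88.9%) and in 21.3% of Sertoli cells (13.5% to 30.9%), which do not divide in the adult. Without thinning the shares were 96.4% and 47.9%, at median depths of 33351 and 19014.5 UMIs. Ccna1 was in 75.0% of thinned late spermatocytes, 24.5% of Sertoli cells and 9.54% of spermatogonia, so that the spermatogonial share was below that of Sertoli cells. Pttg1 was in 68.0% of late spermatocytes and 51.1% of Sertoli cells. Ccna2 was in 43.1% of thinned spermatogonia, 0.584% of late spermatocytes and 1.06% of Sertoli cells. Ccnb3 was in 30.9% of early prophase barcodes (39.4% unthinned) and in 0 of 685 thinned late spermatocytes (0.584% unthinned), which allows a share of up to 0.438% of barcodes with a UMI at this thinned depth. Ccnd2 was in 28.9% of spermatogonia and in 0 of 764 thinned early prophase barcodes (0.131% unthinned), which allows up to 0.393% on the same terms. These limits are 3 counts of the total and apply to barcodes with a UMI, not to cells that express the gene. Intervals are exact, and both cover counting error only.

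Of 48 other cell cycle genes, taken from a list set by name, 47 were tested between stages. From pachytene to late spermatocytes 17 rose and 17 fell, beside 21.8% and 33.5% of all genes. Into early round spermatids 4 rose and 28 fell, beside 34.5% and 29.6%. From spermatogonia to early prophase 12 rose and 19 fell, beside 29.1% and 22.9%. From early prophase to pachytene spermatocytes 23 rose and 19 fell, beside 35.6% and 32.3%. Between spermatogonia and late spermatocytes 19 were higher and 21 lower, beside 35.6% and 39.5%. Their median log2 change into early round spermatids was -0.75, beside 0.03 for all genes. The partner kinases went separate ways. Cdk1, which B-type cyclins drive, rose from 87.8 ± 8.63 CPM in pachytene to 180 ± 34.2 in late spermatocytes (log2 1.12, SE 0.16) and was at 39.0 ± 10.1 in early round spermatids. Cdk4, a partner of D-type cyclins, went from 112 ± 15.4 CPM in spermatogonia to 32.9 ± 7.82 in early prophase and 3.94 ± 1.96 in late spermatocytes. Cdk6 stood at 54.2 ± 9.37 and 10.3 ± 4.14 in the first 2 of these stages and at 23.8 ± 3.13 in late spermatocytes. Cdk2 stood at 56.4 ± 8.14, 64.6 ± 13.1 and 54.4 ± 2.79 CPM in spermatogonia, early prophase and pachytene spermatocytes and at 11.4 ± 2.52 in early round spermatids.

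Cdc25a was also low in pachytene spermatocytes, with 94.7 ± 20.3 CPM in spermatogonia, 25.0 ± 5.02 in pachytene and 97.7 ± 15.1 in late spermatocytes. With TMM its called fall came from early prophase to pachytene (log2 -1.04). Its step from spermatogonia to early prophase was not called (-0.21, called under 2 of 4 scalings). The called fall of Ccnb1 with TMM came in that earlier step (-1.75). Cdc25b was at 7.86 ± 4.19 CPM in spermatogonia and at 0.156 or less on average from pachytene spermatocytes on. Wee1, which inhibits Cdk1, stood at 85.8 ± 17.3 CPM in spermatogonia and 24.2 ± 3.42 in pachytene spermatocytes, and did not pass the test from pachytene to late spermatocytes (log2 0.07, SE 0.13). Plk1, a division kinase, rose from 28.2 ± 5.94 to 148 ± 27.5 CPM in that step (log2 2.47, SE 0.18). The other aurora kinases split: Aurkb was at 70.9 ± 5.33 CPM in spermatogonia and 45.9 ± 4.67 in late spermatocytes (log2 0.08 with TMM, not called, but lower and called under the other 3 scalings, at -0.66 at the lowest), while Aurkc, the aurora kinase of germ cells, was at 5.63 ± 2.02 and 71.5 ± 5.94. Espl1 (separase, the target of Pttg1) stood at 49.0 ± 11.8 and 47.6 ± 5.90 CPM in those 2 stages, and its log2 change between them was 0.67 with TMM, where alone it was called, and -0.07 at the lowest among the scalings. Cdc20, which triggers the destruction of securin, was highest in late spermatocytes at 352 ± 58.9 CPM. Of the inhibitors of that step, Fbxo5 was at 37.2 ± 7.18 CPM in spermatogonia and 1.91 ± 0.499 in pachytene spermatocytes, and Fbxo43 was at 1.97 ± 1.07 and 42.8 ± 5.30.

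The nearest profiles among 10652 other genes with at least 20 CPM in a stage were found by Pearson's r over the 8 stages on log2(CPM + 5), as a description. Ccna1 was nearest to Rfx8, Agtr1a and 4930404I05Rik (r of 0.99 each), Aurka to Cdk5rap3, Plekhm2 and Slc2a8 (0.99 each) and Pttg1 to Cacna1h, Mrpl12 and Slain1 (0.99 each). Ccnb1 was nearest to Foxm1, Pxn and Ptrh2 (0.961, 0.955 and 0.954) and Ccnb2 to Ints10, Smim14 and Suclg1 (0.99, 0.98 and 0.98). Ccna2 was nearest to Olfr655, Mtss1 and Tspan4, Ccnb3 to Prdm9, Alcam and Nacad, and Ccnd2 to Ptch1, Erg and Nefm, all at 1.00 after rounding, as profiles with a single high stage are. Prdm9 is among the markers that set early prophase. Ccne2 was nearest to Mindy2, R3hdm2 and Pdss2 (0.99 each), and Cdc25c to Lrp8, Arid3a and Pla2g7 (0.965, 0.956 and 0.944). Among the members themselves Aurka and Pttg1 were most alike (r of 0.96), followed by Ccna1 and Aurka (0.88) and Ccna2 and Ccnd2 (0.88). The stages share libraries and depth, so these values carry no p.

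The diet comparison asked whether these genes differ between the 2 feeding groups. In the whole testis, where all barcodes of a library were summed, the groups overlapped for all 10 genes. Overlap was the common case, since 4.90% of all 20727 genes tested were lower and 1.79% higher in labelled HFD without overlap. Ccna1 stood at 121, 106 and 132 CPM in labelled HFD replicates 1 to 3 and at 122, 152 and 144 in labelled LFD replicates. Ccnb1 stood at 95.6, 109 and 121 in labelled HFD against 103, 128 and 130 in labelled LFD. Fitted log2 changes, labelled HFD minus labelled LFD, ran from -0.56 (Ccnd2, SE 0.48) to 0.42 (Ccnb3, SE 0.33), with -0.15 (SE 0.15) for Ccna1, -0.08 (SE 0.14) for Ccnb1, -0.07 (SE 0.13) for Ccnb2 and -0.02 (SE 0.14) for Aurka. None passed the test (edgeR, smallest adjusted p = 0.986, 0 of 10 under an unadjusted 0.05), and 0% of 20727 genes did, with 471 of them under an unadjusted p of 0.05. Leaving out 1 library at a time moved Ccnd2 from -1.49 (without labelled HFD replicate 1) to -0.16 (without labelled HFD replicate 3), Ccnb3 from 0.10 (without labelled HFD replicate 2) to 0.65 (without labelled HFD replicate 1) and Ccne2 from 0.12 (without labelled LFD replicate 3) to 0.51 (without labelled LFD replicate 1). In bulk sums, fewer cells of a stage and less RNA per cell cannot be told apart. The replicate 1 libraries of the 2 diets deviated from their group means alike (correlation over genes of 0.487). Within replicate 1 and within replicates 2 and 3 the log2 ratios had opposite signs for Ccnd2 (0.50 and -1.58), Ccnb3 (-0.73 and 0.77), Ccne2 (-0.23 and 0.60) and Ccna2 (0.13 and -0.44).

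Within stages, 7 to 9 of the 10 genes had enough UMIs to be tested, and none passed (edgeR, smallest adjusted p of a member = 0.711). Nor did any other gene, 0% of the 9166 to 13403 tested per stage, with 202 to 785 under an unadjusted p of 0.05. At most 1 member lay apart without overlap in any stage but late spermatocytes. Labelled HFD was lower for Pttg1 in early prophase (as for 3.95% of genes) and Ccna1 in pachytene spermatocytes (4.39%). It was higher for Ccna2 in early round spermatids (4.70%). Ccna1 in pachytene spermatocytes changed by a log2 of -0.36 (SE 0.13, edgeR unadjusted p = 0.0167, adjusted p = 0.948). Late spermatocytes, picked out after all 8 stages were seen, were where the members differed most evenly. Ccna1 stood at 349, 294 and 313 CPM in labelled HFD replicates 1 to 3 and at 395, 399 and 394 in labelled LFD replicates 1 to 3. Ccnb1 stood at 185, 211 and 206 against 240, 260 and 245, and Ccnb2 at 284, 275 and 275 against 321, 316 and 334. Aurka stood at 449, 426 and 437 against 503, 500.2 and 499, and Pttg1 at 255, 240 and 247 against 270, 269 and 258. In these 5 of 7 genes tested every labelled HFD library was below every labelled LFD library, while 6.43% of all 10701 genes tested there were so placed. None of the 5 passed the adjusted test: the log2 changes were -0.31 for Ccna1 (SE 0.11, edgeR unadjusted p = 0.0139), -0.30 for Ccnb1 (SE 0.10, edgeR unadjusted p = 0.00998), -0.21 for Ccnb2 (SE 0.10), -0.19 for Aurka (SE 0.10) and -0.10 for Pttg1 (SE 0.10), all with an adjusted p of 0.717 or more. The log2 ratios within replicate 1, 1 library against 1, were -0.18, -0.37, -0.17, -0.16 and -0.08 in that order. Within replicates 2 and 3 they were -0.39, -0.28, -0.24, -0.21 and -0.11. Their shared sign follows from the lack of overlap and is no further check. The 5 genes all rose from pachytene to late spermatocytes and were measured in the same libraries, so they are not 5 independent results. Their later course was not shared: Ccna1, Aurka and Pttg1 fell into early round spermatids, while Ccnb1 and Ccnb2 were not called there (log2 0.08 and 0.20). The late spermatocytes of the libraries also differed in position, with mean round minus pachytene scores of -0.54, -0.51 and -0.68 in labelled HFD replicates 1 to 3 and -0.55, -0.48 and -0.50 in labelled LFD, and the part of that in the result was not tested.

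**Figure D4:**
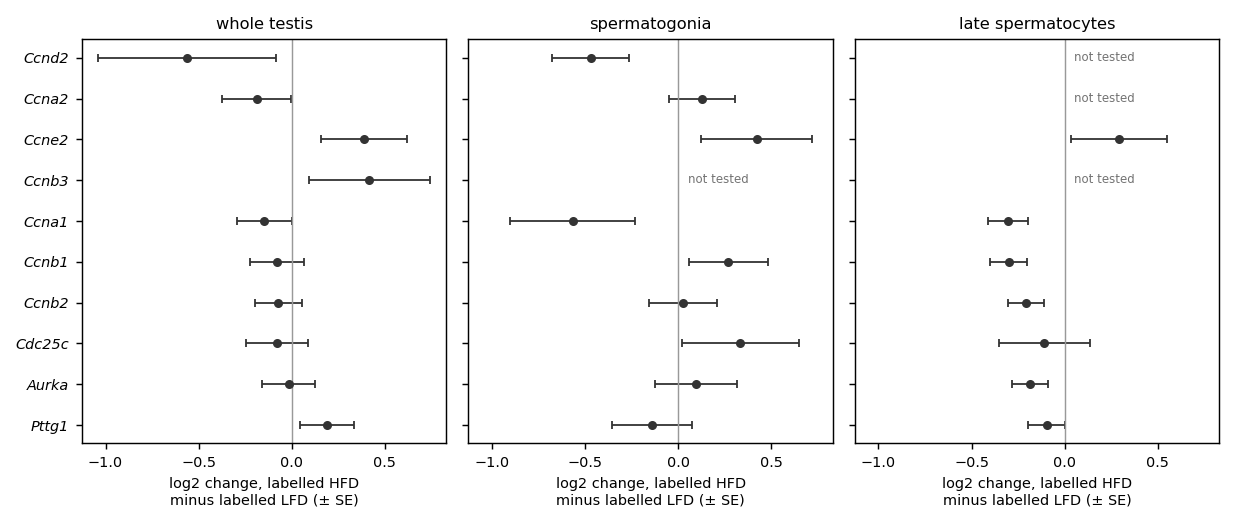
Fitted log2 change, labelled HFD minus labelled LFD, with its SE (x axis) for the 10 genes (y axis) in the whole testis, spermatogonia and late spermatocytes, with 3 libraries per diet. No value passes the adjusted test.

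In spermatogonia Ccnd2 stood at 137, 119 and 76.5 CPM in labelled HFD replicates 1 to 3 and at 137, 172 and 170 in labelled LFD (log2 change -0.47, SE 0.21, edgeR adjusted p = 0.999). Labelled HFD replicate 3 held 33 of its UMIs in 27 barcodes. In early prophase Ccnb3 stood at 70.6, 146 and 102 CPM against 96.2, 73.5 and 45.9, with a fitted difference of 0.51 on the log2 scale (SE 0.25, edgeR adjusted p = 0.994), and its sign differed between replicate 1 (-0.45) and replicates 2 and 3 (1.06). Without labelled HFD replicate 1, Ccna1 passed the test in late spermatocytes (log2 -0.42, edgeR adjusted p = 0.034) and in later round spermatids (-0.51, edgeR adjusted p = 0.020). With both replicate 1 libraries left out, an alternative added after the data were seen, Ccna1 (-0.55, edgeR adjusted p = 0.015) and Aurka (-0.48, edgeR adjusted p = 0.037) passed in later round spermatids. Without labelled HFD replicate 1, 290 of 10923 genes were called in late spermatocytes and 749 of 13659 in later round spermatids. Without both replicate 1 libraries, 943 of 13426 were called in later round spermatids.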

How the data were processed

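Mouse testis cells of 6 libraries, 3 per diet, were analysed. The values used are UMI counts per gene and barcode, deposited by the authors as filtered matrices made with Cell Ranger 6.0.1 on build mm10 (submitters' processing notes). The kit is version 2 in the labels and 3.1 in the study's methods. The study's limits on genes per barcode remove none here. Total counts per library were 39196921 to 95845514.

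Barcodes with at least 5000 UMIs were given the stage with the highest scaled marker score (at least 0.4, with at least 5 marker UMIs). Of 105 markers, 104 were found. Late spermatocytes scoring at or above 0 for round spermatid markers were counted as early round. Barcodes marked by Scrublet as doublets were kept, and left out as an alternative. UMI counts were summed per stage and library and tested with edgeR 4.0.16 (quasi-likelihood, TMM, Benjamini-Hochberg over all genes tested, threshold 0.05), with the library as a block between stages and no block between diets. P-values for diet rest on 3 mice per group. DESeq2 1.42.0, other size factors, filters, marker limits, left-out libraries and the replicate number as a block were alternatives, and the limit of 10000 UMIs and leaving out both replicate 1 libraries were added after the data were seen. On simulated counts with 200 changed genes, edgeR recovered 79% of those with a log2 change of 1 in the whole-testis diet comparison, with 15 false calls. Between spermatogonia and late spermatocytes it recovered 89%, with 7 false calls. The changed genes were drawn from those above a minimum level, which Ccna2, Ccnb3 and Ccnd2 do not reach in the whole testis. Smaller changes and diet within stages were not simulated, so the recovery does not apply to them.

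The 10 genes, the marker lists and the list of other cell cycle genes were chosen with earlier results of these data known. All 10 are named, with 14 listed partners and regulators, and for each the 3 most correlated genes. Overlapping genes are annotated on the opposite strand of Ccna1, Ccna2, Ccnd2, Ccne2 and Cdc25c.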

Additional observations from a re-analysis of the deposited data

Results flagged for a closer look

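The level of a member in a stage was compared among the 6 libraries in 69 cases, and in 10 of them the library at one end lay apart from the others by more than Dixon's critical share of the whole range. Chance alone gives about 1 such case in 20.

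Labelled HFD replicate 2 was the library apart in 6 of the 10. In elongating spermatids it was high for 4 members, with 63.5 CPM of Ccnb1 (next 25.2), 88.4 of Ccnb2 (next 39.3), 80.9 of Aurka (next 32.4) and 90.6 of Pttg1 (next 30.2). All 4 of these levels lay within the ranges of the somatic classes. In early round spermatids it was low for Ccnb1, at 156 CPM against 211 in the nearest library. In spermatogonia it was high for Ccna2, at 171 CPM against 139.

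Labelled LFD replicate 3 was high for Ccna2 in early meiotic prophase, at 51.0 CPM against 26.1, from 20 UMIs, and for Ccnb2 in pachytene spermatocytes, at 216 CPM against 184. Labelled LFD replicate 2 was high for Ccna2 in late spermatocytes, at 4.62 CPM against 1.60, and in later round spermatids, at 3.66 against 1.59.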

How the results depend on the processing

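Of 518 refits of the 37 called stage changes of the members, 508 kept direction and call, 9 lost the call and 1 turned. In barcodes of at least 10000 UMIs Ccna1 from spermatogonia to early prophase turned to -0.18, and Pttg1 in that step (log2 -0.55, edgeR adjusted p = 0.083), Ccne2 from early prophase to pachytene spermatocytes (-0.37, 0.079) and Ccna1 into early round spermatids (-0.41, 0.067) lost the call. This limit left 7884 of the 10323 germ cell barcodes. As few as 11 remained in a stage and library, under the minimum of 20 set for the stages. The cause of these changes was not tested. Without each library in turn, the Ccna1 share difference ran from 82.9 to 85.9 points and the Ccnb3 share difference from 32.4 to 36.5, with p at 0.0625, the smallest that 5 libraries allow. By diet in the whole testis, leaving out 1 library gave log2 changes of -0.12 to 0.060 for Aurka and -0.18 to 0.013 for Cdc25c. Genes called by diet there numbered 0 to 2 (2 without labelled HFD replicate 1), and 93 with both replicate 1 libraries left out. Within stages, summed over the 8, they numbered 0 to 1831 (1831 without labelled HFD replicate 1), 1007 with both replicate 1 libraries left out, 96 with no filter and 7 with DESeq2. Member calls within stages, each a gene in a stage, numbered 0 to 2. The 2 were Ccna1 in 2 stages without labelled HFD replicate 1, and Ccna1 and Aurka in later round spermatids without both replicate 1 libraries.

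With the replicate number as a block (replicate block), 24 genes were called by diet in the whole testis and 44 within stages, with 0 members in each. Correlations of deviations between same-numbered libraries were 0.487, 0.031 and 0.262, and labelled HFD replicate 2 was closest to labelled LFD replicate 3 (0.300), so the numbers were not taken to pair the samples.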
